A study of Danio rerio with 16 samples.

Results

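The genes described here are 10 genes of the circadian clock and its output in zebrafish testis: the activators clocka, clockb and npas2, the PAR bZIP factors tefa, tefb, dbpa, dbpb and hlfa, and the bZIP repressors nfil3 and nfil3-5. They were chosen by name from the 32520 genes of the count table, with earlier results of these libraries known, and all 10 were found there. The values that led to the choice are not recorded, so every member value below is a description of these libraries and not independent evidence. Of the 10, 9 had enough read pairs to be tested, and nfil3, with 0 to 9 read pairs per library, did not.

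RNA was sequenced from testes of AB zebrafish that were diploid or triploid. Fish of both ploidies were kept as controls or received 17α-ethinylestradiol (EE2), an estrogen made by synthesis and used in contraceptives. Each of the 4 combinations of ploidy and treatment had 4 libraries, numbered as replicates 1 to 4. A title of the submitters marks triploid EE2 replicate 2 as an outlier, so that group entered every comparison with 3 libraries. The labels place the study's question in the hormonal and paracrine signalling of triploid testis. The sources used here do not give the dose, the length of exposure, the fish's age, how many fish went into a library, or the time of day or light phase at which testes were taken. All groups share the AB background, and nothing in the labels says how triploidy was produced.

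The circadian clock is a feedback loop of transcription. CLOCK, or its paralog NPAS2, pairs with BMAL proteins and activates genes through E-box elements; the period and cryptochrome proteins made from such genes then repress the pair. TEF, DBP and HLF are PAR bZIP factors that activate genes through D-box elements and carry the rhythm to output genes, while NFIL3 binds the same elements and represses. In zebrafish, peripheral tissues hold clocks that light can set directly, and many D-box genes respond to light. Transcripts of this kind vary over the day in many tissues, and each library here is a single sampling.

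Library totals ran from 7052508 to 17369549 read pairs. In diploid control replicate 1 the RNA differed in kind: rn7sl1, the RNA of the signal recognition particle, made up 13.3% of read pairs, against 4.71% to 7.77% in the other 15 libraries, and mitochondrial genes took 6.86%, against 1.63% to 3.01%. The 8 germ cell markers, which include the germ cell helicase gene ddx4, summed to between 4556 and 7022 CPM (read counts scaled to library size) in every library that entered the comparisons. None of the 53 matched markers of testis and other cell types was at 0 in all libraries. P-values measure only the spread between these samples, which may be partly technical, since the labels do not say how libraries relate to fish.

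Per length, tefb was the most abundant of the 10 genes in each group. Its mean level ran from 32.98 ± 5.21 (SD, n = 4) CPM per kb of exon in diploid controls to 41.7 ± 6.17 (n = 3) in triploid EE2, and its range did not overlap that of any other member within a group. A middle tier held tefa, clockb and dbpb. Their group means lay between 9.53 and 14.4 CPM per kb, and in diploid controls, diploid EE2 and triploid controls neighbours within this tier overlapped in range. Below them stood dbpa at 5.86 to 6.83 CPM per kb and clocka at 4.14 to 7.73. The order of these genes changed in diploid EE2 alone, where the mean of clocka (7.73 ± 0.944) was above that of dbpa (5.92 ± 0.146) and the ranges did not overlap. Lower still were hlfa at 2.04 to 5.60, npas2 at 1.34 to 1.96 and nfil3-5 at 0.946 to 2.53 CPM per kb. The 2 last changed places in diploid EE2, with overlapping ranges. The lowest gene in each group was nfil3, at 0.0984 to 0.188 CPM per kb.

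**Figure D1:**
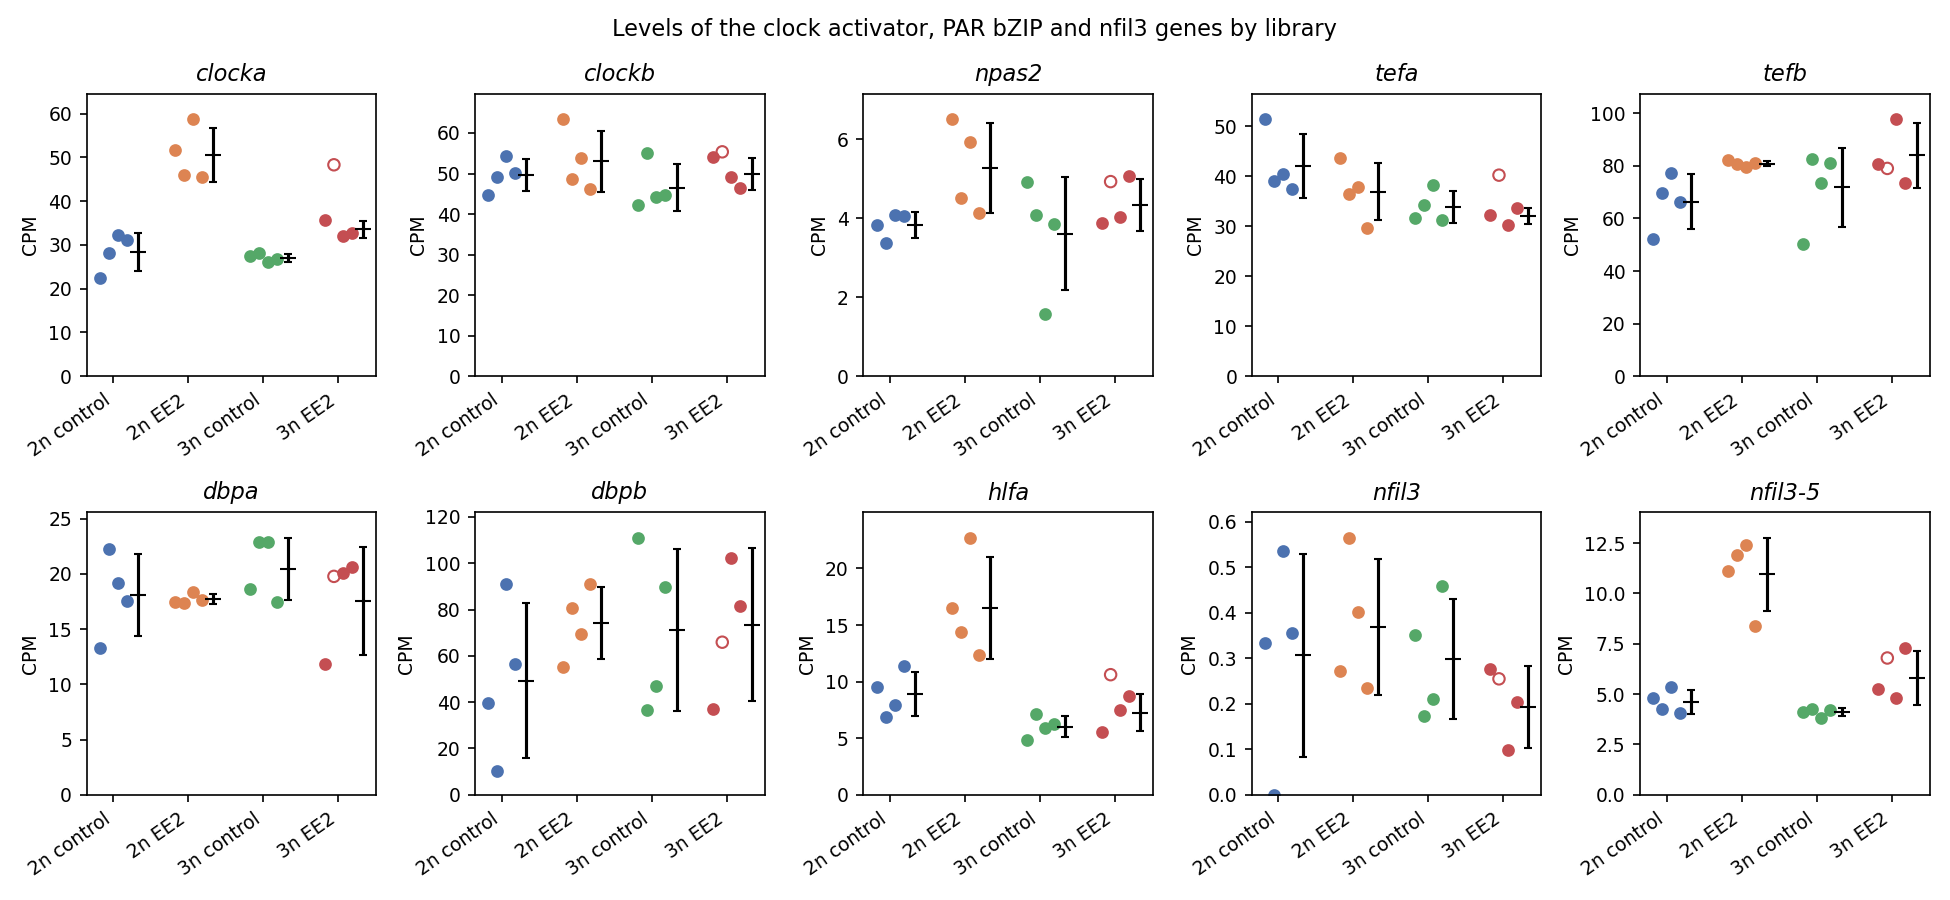
Level of each of the 10 genes in CPM (linear axis from 0) for every library, grouped as diploid (2n) or triploid (3n) control or EE2. Filled points are libraries in the comparisons, the open point is the library titled an outlier, and the black bar is the mean ± SD without it. For clocka, hlfa and nfil3-5 the 4 diploid EE2 libraries lie above all libraries of the other groups in the comparisons, and dbpb scatters widely in the groups other than diploid EE2.

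In diploid testis, 3 of the 9 tested genes rose with EE2: clocka by 1.77-fold, hlfa by 1.85-fold and nfil3-5 by 2.39-fold. Over all 23007 genes tested, 1.94% were called higher in this comparison, at a Benjamini-Hochberg adjusted p under 0.05 in edgeR's quasi-likelihood test. None of the 9 was called lower, as 0.422% of all genes were. The diploid EE2 libraries lay above all diploid controls for 5 of the 9 genes, the 3 called ones with npas2 and tefb, where 5.46% of all genes showed such a separation upward. The median log2 change was 0.46 over the 9 genes and -0.01 over all genes. In whole testis, a lower level can mean fewer cells of a type or less RNA per cell, and likewise for a higher one, and these cannot be told apart.

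Under EE2, the same 3 genes were lower in triploid than in diploid testis: clocka by 1.505-fold, hlfa by 2.29-fold and nfil3-5 by 1.90-fold. Over all genes tested, 4.77% were called lower in this comparison. The 3 genes were also the members whose groups did not overlap, with triploids lower, as were 12.1% of all genes. No member was called higher, against 1.05% of all genes. The median log2 change was -0.20 over the 9 genes and 0.00 over all genes. Both comparisons use the same 4 diploid EE2 libraries, on opposite sides, so a high level in those libraries enters both.

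In the other comparisons no member was called. Between triploid and diploid controls edgeR called 0 of 9 genes, DESeq2 and limma-voom also called 0, while over all genes 2.74% were called. At an unadjusted p under 0.05 there were 2 members, tefa and hlfa, and 17.6% of all genes. Between EE2 and control in triploids each of these tools called 0 of 9 members and edgeR called 0.104% of all genes. An unadjusted p under 0.05 was found there for 2 members, clocka and nfil3-5, and for 5.42% of all genes. These members were also those whose triploid EE2 libraries all lay above the triploid controls, as did 4.81% of all genes. For the interaction, which asks whether the change with EE2 differed between triploids and diploids, edgeR called 0 of 9 members and 0 of 23007 genes, 0 percent. At an unadjusted p under 0.05 the interaction counted 2 members, clocka and nfil3-5, and 1223 genes, and DESeq2 called 43 genes, none of them a member.

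**Figure D2:**
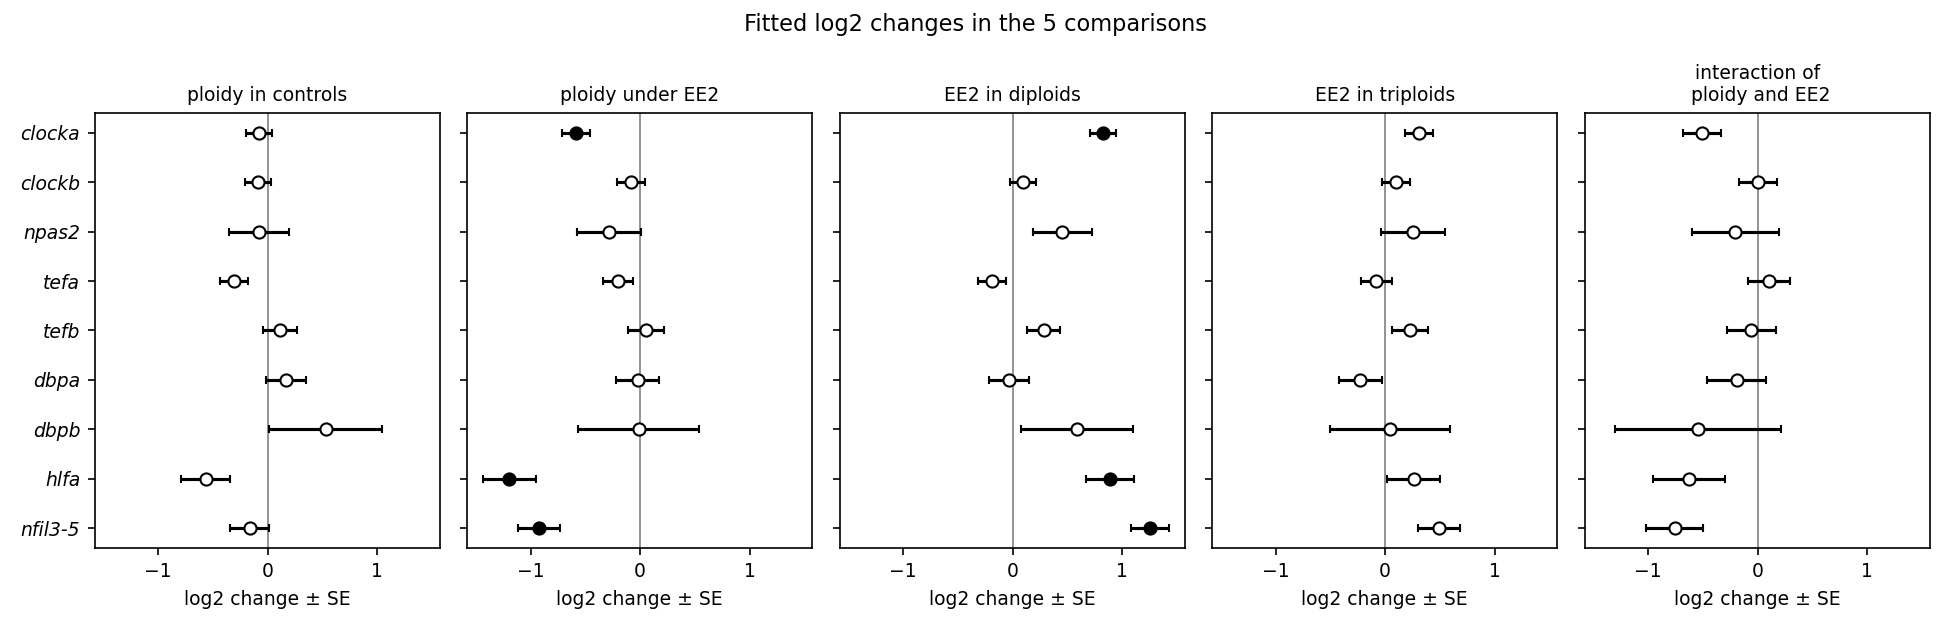
Fitted log2 change of the 9 tested genes in the 5 comparisons (x axis, log2 scale), with points for the change and bars for ± 1 standard error. Filled points had an adjusted p under 0.05 over all genes. The filled points are clocka, hlfa and nfil3-5, above 0 for EE2 in diploids and below 0 for ploidy under EE2, while dbpb has the longest bars.

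Among the activators, clocka moved and clockb did not pass the test in any comparison. The gene clocka (ENSDARG00000011703, GRCz11 chromosome 20, 22067337 to 22176003, + strand) encodes a CLOCK protein, the bHLH-PAS partner of BMAL. Its level was 22.5, 28.1, 32.2 and 31.1 CPM in diploid control replicates 1 to 4 and 51.8, 46.1, 58.7 and 45.5 CPM in diploid EE2. In triploids it was 27.4, 28.1, 26.03 and 26.7 CPM in controls and 35.8, 32.1 and 32.8 CPM in EE2 replicates 1, 3 and 4. Every diploid EE2 library was above every other library in the comparisons, diploid and triploid controls overlapped, and the triploid EE2 libraries lay between the controls of their ploidy and diploid EE2. The log2 change with EE2 in diploids was 0.82 ± 0.12 (SE; edgeR adjusted p = 0.00185). Between triploid and diploid EE2 it was -0.59 ± 0.13 (edgeR adjusted p = 0.0140). With EE2 in triploids it was 0.31 ± 0.13 (edgeR adjusted p = 0.777), and the interaction was -0.51 ± 0.17 (edgeR adjusted p = 0.8286), so a difference between ploidies in the change with EE2 was not called. The ploidy difference under EE2 rests on few libraries. It was no longer called with the titled outlier included, where that library's 48.3 CPM brought the log2 change to -0.44 (edgeR adjusted p = 0.169), nor without diploid EE2 replicate 3 (-0.51, edgeR adjusted p = 0.0520), triploid EE2 replicate 3 (-0.56, edgeR adjusted p = 0.0739) or triploid EE2 replicate 4 (-0.57, edgeR adjusted p = 0.0640).

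The paralog clockb (ENSDARG00000003631, chromosome 1, 19433004 to 19466453, + strand) encodes the other CLOCK protein. Its level was 44.6, 49.1, 54.3 and 50.1 CPM in diploid controls and 63.4, 48.6, 53.7 and 46.3 CPM in diploid EE2. In triploids it was 42.2, 55.1, 44.1 and 44.7 CPM in controls and 54.0, 49.2 and 46.4 CPM in EE2. All 4 groups overlapped. Its log2 change with EE2 in diploids was 0.10 ± 0.12 (edgeR adjusted p = 0.716) and lay close to 0 without diploid EE2 replicate 1, the highest library. In the comparison of triploid with diploid EE2 it was -0.09 ± 0.13 (edgeR adjusted p = 0.791).

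The ratio of clocka to clockb within a library, each per kb, shows the paralogs side by side on libraries of any depth. It averaged 0.322 ± 0.0281 in diploid controls, 0.541 ± 0.0643 in diploid EE2 (n = 4 each), 0.330 ± 0.0327 in triploid controls (n = 4) and 0.380 ± 0.0164 in triploid EE2 (n = 3). The lowest diploid EE2 library, at 0.460, was above the highest diploid control, at 0.350. It was also above the highest triploid EE2 library in the comparisons, at 0.398. The titled outlier of triploid EE2, left out of these ratios, had 7.39 CPM per kb of clocka and 15.03 of clockb. Its ratio would lie above that of the lowest diploid EE2 library. Thus clockb was the more abundant transcript per length in each group, with a smaller lead in diploid EE2. The size of that lead depends on the deposited exon lengths, 6535 bases for clocka and 3682 for clockb. In CPM, not scaled by length, the paralogs overlapped in diploid EE2, at 45.5 to 58.7 for clocka and 46.3 to 63.4 for clockb.

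**Figure D3:**
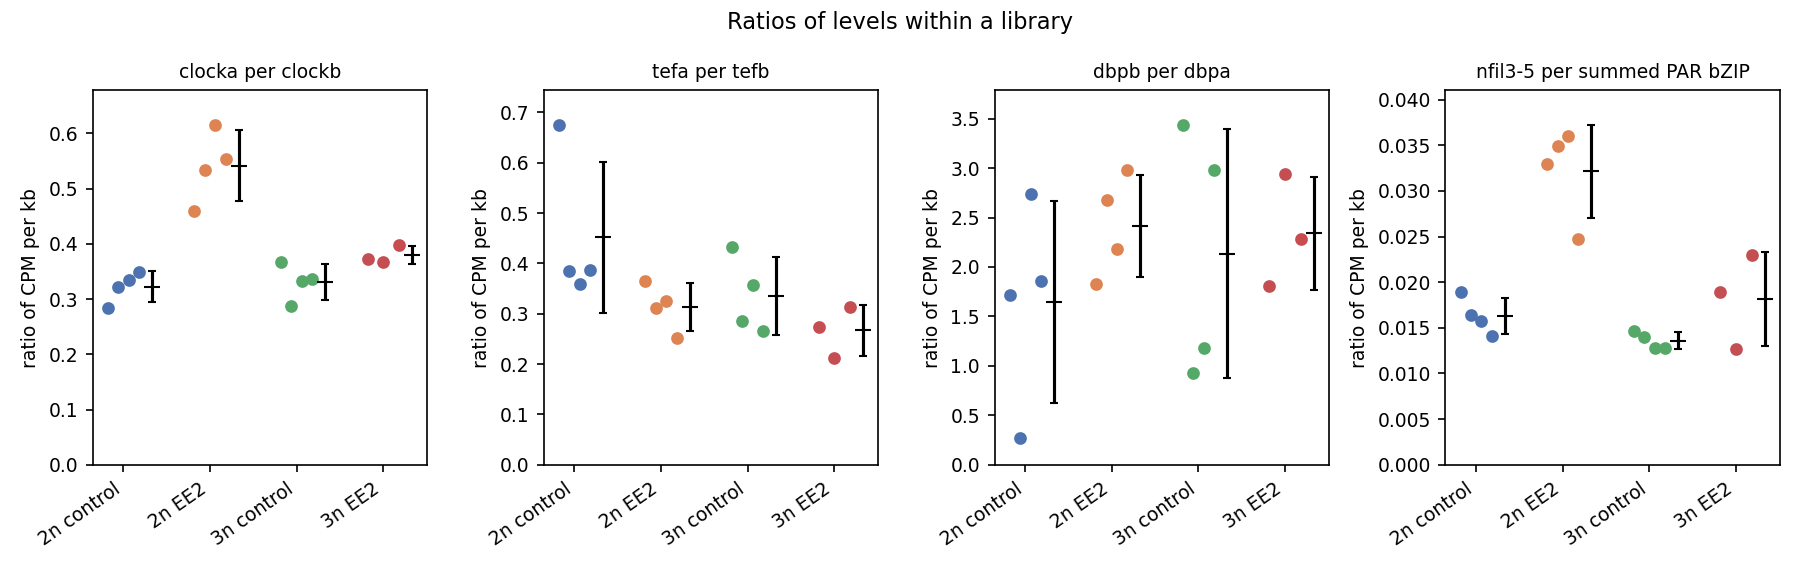
Ratios of length-scaled levels within each library (linear axes from 0) for clocka to clockb, tefa to tefb, dbpb to dbpa, and nfil3-5 to the sum of the 5 PAR bZIP genes. Points are libraries in the comparisons and black bars are mean ± SD. Diploid EE2 stands above the other groups for clocka to clockb and for nfil3-5 to the PAR bZIP sum, while dbpb to dbpa spans 0.271 to 2.73 within diploid controls.

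The third activator, npas2 (ENSDARG00000016536, chromosome 5, 22791686 to 22830724, + strand), can take the place of CLOCK beside BMAL in mammals. Its level was low, at 15 to 103 read pairs per library. It measured 3.83, 3.38, 4.07 and 4.06 CPM in diploid controls and 6.50, 4.52, 5.92 and 4.12 CPM in diploid EE2. The diploid groups were separated by a narrow gap, and the log2 change of 0.46 ± 0.27 did not pass the test (edgeR adjusted p = 0.409). Triploid controls measured 4.93, 4.07, 1.58 and 3.85 CPM and triploid EE2 3.87, 4.04 and 5.08 CPM. Replicate 3 of the triploid controls was low and sets the direction between the control groups: the log2 change from diploid to triploid controls was -0.08 ± 0.28 with it and 0.16 without it.

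Of the 5 PAR bZIP genes, hlfa was called in 2 comparisons and tefa, tefb, dbpa and dbpb in none. The gene hlfa (ENSDARG00000074752, chromosome 3, 11585298 to 11624694, - strand) is an ortholog of hepatic leukemia factor. It measured 9.49, 6.91, 7.93 and 11.4 CPM in diploid controls and 16.5, 14.4, 22.7 and 12.4 CPM in diploid EE2. Triploid controls measured 4.84, 7.10, 5.90 and 6.23 CPM, and triploid EE2 5.53, 7.48 and 8.73 CPM. Diploid EE2 was again the highest group with no overlap, and the triploid groups overlapped each other. The log2 change with EE2 in diploids was 0.89 ± 0.22 (edgeR adjusted p = 0.0454). That call lay close to the threshold: it was lost in 11 of 15 fits that each left out 1 library, while the log2 change stayed between 0.69 and 1.04. Without diploid control replicate 1 alone the log2 change was 0.91 (edgeR adjusted p = 0.0589), and with the titled outlier included 0.87 (edgeR adjusted p = 0.0938). A fit with the replicate number as a block gave 0.89 (edgeR adjusted p = 0.0789).

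Between triploid and diploid EE2 the log2 change of hlfa was -1.20 ± 0.24 (edgeR adjusted p = 0.00881), the widest ploidy difference among the 9 genes in that comparison. Among the 15 fits without 1 library it was lost only without triploid EE2 replicate 1, the lowest library of its group, where the log2 change was -1.03 (edgeR adjusted p = 0.0542). The controls differed in the same direction, by -0.57 ± 0.22, a change that did not pass the test (edgeR adjusted p = 0.207). In triploids the change with EE2 was 0.26 ± 0.24 (edgeR adjusted p = 1.00), and the interaction was -0.63 ± 0.33 (edgeR adjusted p = 0.935).

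The thyrotroph embryonic factor genes tefa (ENSDARG00000039117, chromosome 12, 19144833 to 19153177, - strand) and tefb (ENSDARG00000098103, chromosome 3, 5052822 to 5067585, - strand) had opposite signs with EE2 in diploids, neither called. For tefa the diploid controls measured 51.4, 39.0, 40.4 and 37.4 CPM and diploid EE2 43.6, 36.5, 37.8 and 29.7 CPM, overlapping, with a log2 change of -0.19 ± 0.13 (edgeR adjusted p = 0.481). For tefb the diploid controls measured 52.3, 69.8, 77.3 and 66.3 CPM and diploid EE2 82.1, 80.6, 79.7 and 81.0 CPM. The 4 diploid EE2 libraries of tefb were nearly level, within 1.03-fold of each other, and all above the controls. Its log2 change was 0.28 ± 0.15 (edgeR adjusted p = 0.364), and 0.18 without diploid control replicate 1, the lowest control. In triploids tefa ran from 31.4 to 38.2 CPM in controls and from 30.3 to 33.6 CPM in EE2, and tefb from 50.3 to 82.5 and from 73.6 to 97.8 CPM. The difference of tefa between triploid and diploid controls was -0.31 ± 0.13, with overlapping groups (edgeR adjusted p = 0.236). The ratio of tefa to tefb per kb was 0.452 ± 0.150 in diploid controls and 0.267 ± 0.0507 in triploid EE2, and diploid control replicate 1 alone, at 0.676, stood above the other control libraries, the next of which was at 0.434.

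The D-site binding protein genes differed from each other in their spread. For dbpa (ENSDARG00000063014, chromosome 19, 10177115 to 10196370, - strand) the 15 libraries lay between 11.9 and 22.9 CPM, with groups that overlapped and log2 changes between -0.23 and 0.17 in the 4 comparisons of groups. Without triploid EE2 replicate 1, at 11.9 CPM, its log2 change with EE2 in triploids went from -0.23 to -0.01. For dbpb (ENSDARG00000057652, chromosome 16, 13599693 to 13613475, - strand) the diploid controls measured 39.6, 10.4, 90.8 and 56.5 CPM, and diploid EE2 55.1, 80.6, 69.4 and 91.2 CPM. Fold ranges were taken from log2 CPM with a prior count of 2, and that of the diploid controls was 8.57-fold. Triploid controls measured 111.0, 36.8, 46.9 and 89.9 CPM, and triploid EE2 37.1, 102 and 81.3 CPM. In 3 of the groups the highest library was at least 2.74-fold above the lowest, while the diploid EE2 libraries lay within 1.65-fold of each other, inside the range of the diploid controls but for 91.2 CPM. The gene was counted at 133 to 1284 read pairs per library. Its pooled SD within groups was 0.877 on the log2 scale, against 0.157 for clocka and clockb, 0.177 for tefa and 0.405 for npas2, the next highest tested gene. The standard errors of its log2 changes followed, from 0.52 to 0.55 in the comparisons of groups. A change of dbpb such as the 0.59 with EE2 in diploids (edgeR adjusted p = 0.589) did not pass the test, and it ran from 0.23 without diploid control replicate 2 to 1.08 without diploid control replicate 3.

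As a share of the summed PAR bZIP level, each per kb, tefb made up between 50.1% and 55.8% on group average, tefa 14.8% to 22.2%, dbpb 13.8% to 19.8%, dbpa 7.54% to 9.84% and hlfa 2.92% to 7.12%. The sum itself was 65.9 ± 9.22 CPM per kb in diploid controls, 78.6 ± 0.881 in diploid EE2, 69.9 ± 4.72 in triploid controls and 75.1 ± 12.01 in triploid EE2. The scarcest of the 5 on group average was hlfa, at 3.03 CPM per kb in diploid controls and 5.60 in diploid EE2.

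The repressor nfil3-5 (ENSDARG00000094965, chromosome 6, 8172227 to 8180042, + strand) belongs to the expanded group of nfil3 relatives in teleost fish. It measured 4.83, 4.24, 5.36 and 4.06 CPM in diploid controls and 11.1, 11.9, 12.4 and 8.36 CPM in diploid EE2. Triploid controls measured 4.13, 4.24, 3.79 and 4.22 CPM, and triploid EE2 5.25, 4.82 and 7.31 CPM. The control groups overlapped, triploid EE2 stood just above triploid controls, and diploid EE2 was above all. With EE2 in diploids the log2 change was 1.25 ± 0.18 (edgeR adjusted p = 0.00150), the widest change of any member. It was called in all 15 fits that left out 1 library, with log2 changes from 1.19 to 1.36, as was clocka, with 0.72 to 0.89. Between triploid and diploid EE2 it was -0.92 ± 0.19 (edgeR adjusted p = 0.00969). That call was lost without triploid EE2 replicate 1 (-0.86, edgeR adjusted p = 0.0545) and without replicate 3 (-0.81, edgeR adjusted p = 0.0629). In triploids the change with EE2 was 0.50 ± 0.19 (edgeR adjusted p = 0.736), and 0.30 without triploid EE2 replicate 4. The interaction was -0.76 ± 0.26 (edgeR adjusted p = 0.848).

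**Figure D4:**
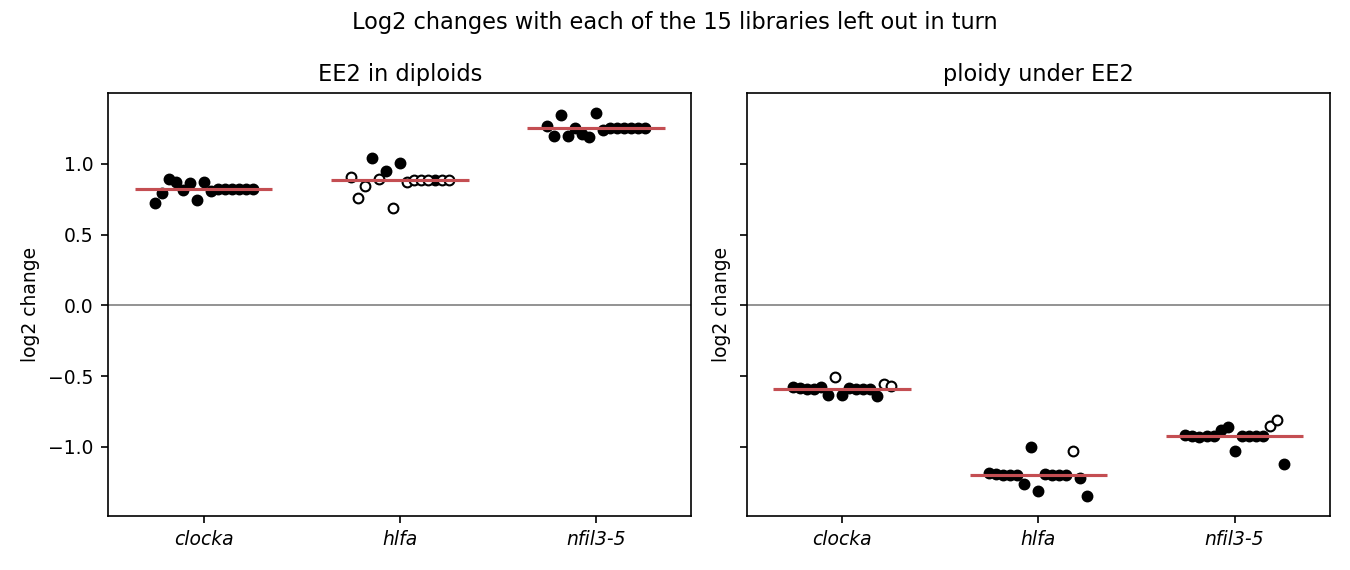
Log2 change (y axis) of clocka, hlfa and nfil3-5 for EE2 in diploids and for ploidy under EE2, refitted with each of the 15 libraries left out in turn. Each point is a refit, filled where the adjusted p was under 0.05, and the red line is the value with all 15. The direction was kept in every refit shown, and most open points belong to hlfa with EE2 in diploids.

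Set against the activators of the same element, nfil3-5 made up a larger ratio to the summed PAR bZIP level in diploid EE2, at 0.0322 ± 0.00511, than in diploid controls, at 0.0163 ± 0.00201, or triploid EE2, at 0.0182 ± 0.00517. The lowest diploid EE2 library, at 0.0247, was above the highest library of the other groups, a triploid EE2 library at 0.0229. The other repressor, nfil3 (ENSDARG00000042977, chromosome 10, 5414224 to 5419256, + strand), was barely detected. Its highest level was 0.565 CPM, in diploid EE2 replicate 2, and in diploid control replicate 2 it had 0 read pairs, which allows up to 0.236 CPM (3 read pairs, counting error only). At this depth nfil3 was not tested in any comparison, so no statement on a difference between groups is made.

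Of the markers of other cell types, those of smooth muscle and peritubular cells were, like clocka, hlfa and nfil3-5, highest in diploid EE2. Their sum over 5 matched genes, which include the actin gene acta2, was 383 to 631 CPM in diploid controls, 1258 to 1637 in diploid EE2, 311 to 377 in triploid controls and 576 to 701 in triploid EE2. With EE2 in diploids 4 of the 5 were called higher, and in triploid against diploid EE2 4 of the 5 were called lower. Of 6 endothelial markers, 3 were called higher and 2 lower in these comparisons, with sums of 106 to 154, 131 to 239, 112.5 to 124 and 109 to 149 CPM in the same order of groups. Among markers of macrophages and neutrophils, 1 of 3 tested genes was called higher with EE2 in diploids. The sum over 4 matched genes was 47.9 to 146.6 CPM in diploid EE2, just above the highest other library in the comparisons, at 47.8. The titled outlier, left out of the sums given here, was higher, at 324.6 CPM. It was at 173 CPM for endothelium and 776 CPM for smooth muscle and peritubular cells. Erythrocyte markers summed to 42.5 to 747 CPM in diploid EE2 and 22.3 to 30.3 in diploid controls, with 1 of 4 called higher. Their sums were 20.3 to 44.8 CPM in triploid controls, overlapping diploid EE2, and 23.9 to 40.7 in triploid EE2. The 747 CPM was diploid EE2 replicate 1 alone, and the next highest diploid EE2 library was at 58.4 CPM. Of 5 adipose markers, 1 was called higher with EE2 in diploids. Their sums were 119 to 509 CPM in diploid controls and 204 to 510 in diploid EE2, which overlapped. In triploids the adipose sums were 105 to 166 CPM in controls and 177 to 302 in EE2. Of the markers of macrophages and neutrophils, erythrocytes and adipose tissue none was called for ploidy under EE2, where the median log2 changes were -0.95, -2.95 and -0.44. Markers of liver and exocrine pancreas had no call in either comparison, but their sums varied widely between libraries of a group. Liver sums were 47.4 to 302 CPM in diploid controls and 46.8 to 370 in diploid EE2. In triploids they were 90.9 to 284 CPM in controls and 78.3 to 484 in EE2. Pancreas sums were 29.6 to 4211 CPM in diploid controls and 36.1 to 2589 in diploid EE2. In triploids they were 30.3 to 139 CPM in controls and 6.84 to 96.0 in EE2. Leydig cell markers went the other way with EE2 in diploids, with 4 of 6 called lower. Their sums were 926 to 3510 CPM in diploid controls against 127 to 508 in diploid EE2. In triploids 2 of the 6 were called lower with EE2, with sums of 920 to 1493 CPM in controls against 149 to 282 in EE2. Sertoli cell markers were lower in triploid than diploid EE2 for 3 of 5 genes, with sums of 448 to 530 against 1288 to 1793 CPM. Between controls 3 of the 5 were also called lower in triploids, with sums of 381 to 571 against 952 to 1465 CPM. None of 8 germ cell markers was called with EE2 in diploids or for ploidy under EE2. The part of these cell types in the levels of clocka, hlfa and nfil3-5 was not tested.

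Of the other clock genes, 44 distinct genes were matched and 42 tested. With EE2 in diploids 4 of the 42 were called higher and 4 lower, against 1.94% and 0.422% of all genes tested. The smallest p-values belonged to nr1d2a, which encodes a REV-ERB repressor of the bmal genes, and to the cryptochrome genes cry1bb and cry1ba, which the reference lists as cry3b and cry3a. The level of nr1d2a was 18.6 ± 3.14 CPM in diploid controls and 128 ± 24.9 in diploid EE2 (log2 change 2.78 ± 0.30, edgeR adjusted p = 3.89e-04). The gene cry1bb went from 55.6 ± 10.8 to 109.6 ± 4.89 CPM (log2 change 0.98 ± 0.12, edgeR adjusted p = 7.62e-04) and cry1ba from 48.3 ± 3.64 to 73.1 ± 8.45 CPM (0.60 ± 0.10, edgeR adjusted p = 0.00454). Genes of the negative arm thus moved both ways, since the 4 called lower were per1b, per3, nr1d1 and ciarta. The BMAL partners of CLOCK, bmal1a, bmal1b and bmal2, were called in no comparison; bmal1a measured 34.4 ± 3.66 CPM in diploid controls and 38.0 ± 0.600 in diploid EE2.

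In triploid against diploid EE2, 1 of the 42 was called higher and 6 lower, against 1.05% and 4.77% of all genes tested. The lower genes with the smallest p were nr1d2a (log2 change -1.85 ± 0.31, edgeR adjusted p = 0.00301) and nfil3-6, another nfil3 relative (-1.38 ± 0.27, edgeR adjusted p = 0.00806). The level of nfil3-6 was 39.8 ± 10.8 CPM in diploid EE2 and 15.4 ± 5.39 in triploid EE2. Both means were above those of nfil3-5 in CPM, which is not scaled by exon length. With EE2 in diploids nfil3-6 was not called (0.50 ± 0.24, edgeR adjusted p = 0.313), where nfil3-5 was. The higher gene was the cryptochrome gene cry1ab (0.87 ± 0.12, edgeR adjusted p = 6.84e-04), which was also the single clock gene called between controls, at 94.7 ± 10.3 CPM in diploids and 150.2 ± 8.87 in triploids (0.66 ± 0.12, edgeR adjusted p = 0.00424). Between controls, 2.74% of all genes tested were called, so 1 of 42 was near that share. With EE2 in triploids edgeR called 0 of 42 and 0.104% of all genes. For the interaction it called 0 of 42 and 0% of all genes.

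Deviations from the group mean show whether members rose and fell together among libraries of like treatment, without use of the group differences. For 12 pairs of members over the 15 libraries, none had an adjusted p under 0.05 in a two-sided permutation test of 100000 draws. The closest pair was clocka and clockb, with Pearson r = 0.61 (permutation p = 0.0206, adjusted p = 0.247) and Spearman rho = 0.79 (permutation p = 0.00504, adjusted p = 0.0605). Without the 2 libraries farthest from the median r was 0.66. The pair dbpa and dbpb had r = -0.10 and rho = -0.10 (permutation p = 0.802 and 0.789, adjusted p = 0.871 and 0.896), and nfil3-5 with dbpb had r = 0.17 and rho = 0.04 (permutation p = 0.562 and 0.896, adjusted p = 0.749 and 0.896).

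Among 15154 named genes whose mean log2 CPM was 1 or more, the pattern over the 15 libraries most like that of clocka was that of flna, which encodes the actin cross-linker filamin A (Pearson r = 0.965), followed by snx1a (0.956). These correlations are descriptions, since the libraries share groups and scaling. Nearest to hlfa were fam13a and zbtb4 (both 0.958), and nearest to nfil3-5 were notchl (0.953) and b3gnt5a (0.950). For members that were not called the highest r was lower. It was 0.918 for clockb (gdpd5a), 0.904 for dbpa (lpgat1) and 0.903 for tefa (fibpb). For tefb it was 0.893 (usp18), for npas2 0.875 (pid1) and for dbpb 0.874 (ube2s). Group means were kept in these correlations, so group differences enter both r and the calls. The contrast between called and other members therefore adds nothing to the calls. Among the 15154 genes, each member was compared with 46 other genes of the clock lists, the other members included. The 20 genes most like a member held cry3a (cry1ba) for clocka and for nfil3-5, and no clock gene for the other 7 members.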

How the data were processed

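The deposited table holds raw counts, whole read pairs per gene and library. They were made by the authors, per the file headers, with featureCounts 2.0.6 set to reverse-stranded exons of the Ensembl 113 annotation of GRCz11. The submitters' processing notes name STAR, whose version and settings the sources used here do not give. The deposited exon length of each gene, in another unit (bases), served to scale levels per kb. Counting by strand keeps clocka and hlfa apart from the sparse opposite-strand genes that overlap them. Gene IDs were given symbols from a reference table (29201 of 32520 matched). Both clock paralogs carry the symbol CLOCK there and were told apart by their chromosomes in RefSeq.

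The count model was fitted in edgeR 4.0.16 (R 4.3.3): TMM scaling, filterByExpr by group (minimum count 10), 1 mean per group over 15 libraries, robust quasi-likelihood F tests, and Benjamini-Hochberg adjustment over the 23007 genes tested. CPM values are scaled by TMM. Standard errors belong to the fitted log2 change and were derived as its absolute value divided by the square root of its F statistic. The code was tested on simulated data. Alternatives were DESeq2 1.42.0, its size factors, limma-voom (limma 3.58.1), other count filters (none, or a minimum count of 30), the titled outlier included, both diploid replicates 1 left out, a replicate block, and each library left out. Correlations were computed in Python 3.11.15 on log2 CPM.

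The members and lists were chosen with earlier results of these data known. Named genes are the 10 members, the called genes with the 3 smallest p in each comparison among 44 other clock genes, and the 2 genes most like each tested member, of which the text gives the first or both. Other called clock genes named were chosen after their values were seen.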

Additional observations from a re-analysis of the deposited data

Results flagged for a closer look

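Triploid EE2 replicate 1 had the lowest dbpa level of its 4 libraries, 11.9 CPM, far below the other 3, which lay between 19.8 and 20.6 CPM. The gap made up 0.905 of the group's range. It was the single case among 40 groups of 4 libraries examined, 10 genes in 4 groups, and chance flags about 1 in 20.

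Triploid EE2 replicate 2, titled an outlier and used in no comparison, was above all 4 triploid controls for 5 of the 9 tested members, as it was for 34.5% of all genes tested. It measured 48.3 CPM for clocka, against a highest triploid control of 28.1 CPM, and 6.79 CPM for nfil3-5, against 4.24. For hlfa it measured 10.6 CPM against 7.10. The margins were slim for clockb, at 55.4 CPM against 55.1, and for tefa, at 40.2 CPM against 38.2.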

How the results depend on the processing

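None of the 6 member calls reversed. With EE2 in diploids those of clocka and nfil3-5 held under every alternative run, whereas that of hlfa was lost in 11 of 15 omissions. The count of called members stayed between 2 and 3 with EE2 in diploids and between 1 and 3 for ploidy under EE2, and at 0 elsewhere, also without 1 library each. The call of hlfa with EE2 in diploids was also lost with no filter on low counts (0.88, edgeR adjusted p = 0.0541) and without both diploid replicates 1 (0.92, edgeR adjusted p = 0.0881).

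Counts over all genes moved more. For ploidy in controls, ploidy under EE2, EE2 in diploids, EE2 in triploids and the interaction, edgeR called 630, 1338, 543, 24 and 0 genes, and DESeq2 1227, 2095, 1207, 100 and 43. With the titled outlier included the first 4 counts were 377, 484, 257 and 38. Without both diploid replicates 1, ploidy in controls gave 1059 and the interaction 1. With EE2 in triploids limma-voom gave 10. Leaving out each library gave 350 to 785, 592 to 2135, 254 to 656, 2 to 35 and 0 to 5 genes. The lowest counts came without triploid control replicate 1, triploid EE2 replicate 3, diploid EE2 replicate 3 and triploid EE2 replicate 1 in turn. The count of 2135 came without diploid control replicate 1. The cause of these moves was not tested.

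Libraries with the same replicate number shared little of their deviation from the group means. Of 21 same-numbered pairs, 2 had deviations correlated above 0.1 (-0.17 to 0.14), and 0 of 15 libraries correlated best with its own number. Whether same-numbered libraries were handled together cannot be read from these values. With the number as a block EE2 in triploids gave 4 genes, and of the members' calls it ended that of hlfa with EE2 in diploids alone. Depth limits nfil3 (0 to 9 read pairs) and npas2 (15 to 103) most.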
